A study of Mus musculus with 8 samples.

Results

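Nuclear receptors were followed through the transcriptome of endothelial cells sorted from mouse brain, with Esr1, the gene of oestrogen receptor alpha, set against its relatives. The members were 46 receptor genes chosen by symbol, each of which matched 1 of the 25700 gene rows. The mutant pups were labelled as endothelial knockouts of GLUT1, the glucose transporter encoded by Slc2a1 (genotype label GLUT1EC-/-, here KO, n = 4), and their controls were WT littermates per the growth protocol (n = 4). All 8 were C57BL/6 pups at postnatal day 6, their endothelial cells were isolated by flow cytometry without culture, and each library came from 1 pup. The labels name neither the promoter that drives the deletion nor any inducing agent, and they give no sex.

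Nuclear receptors are transcription factors, most of them switched by a small lipophilic ligand such as a steroid, thyroid hormone, a retinoid or a sterol. Most read a short DNA half-site with a zinc-finger domain, as a monomer or as a dimer, often with a retinoid X receptor as partner. In endothelium, oestrogen receptor alpha is known for its control of nitric oxide synthesis, COUP-TFII (Nr2f2) for venous identity, and the REV-ERB receptors (Nr1d1 and Nr1d2) for the repressing arm of the circadian clock.

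Library totals ran from 20.9 to 40.8 M counts (M for mega) in KO pups and from 25.9 to 114 M counts in WT pups. KO pup 1 stood apart, with 13624 genes detected where the other 7 libraries had 15756 to 17082. The targeted gene Slc2a1 averaged 1507 CPM in KO and 3044 CPM in WT, with no overlap (log2 fold change -1.01, SE 0.14, edgeR adjusted p 0.00619), so its transcript was lower in KO but not absent. CPM are counts scaled to a common library total with factors from the trimmed mean of M values. By the sample titles the KO pups shared a cage with WT pup 5, while other labels in the deposit put WT pup 3 there, so cage and genotype were nearly confounded. Summed over the markers of a cell type, endothelium (9 markers) gave 12357 to 13745 CPM in KO pups and 12910 to 14211 CPM in WT pups. Astrocytes (5) gave 55.6 to 137 CPM in KO pups and 26.9 to 64.2 CPM in WT pups, and choroid plexus and ependyma (5) gave 13.1 to 299 CPM in KO pups and 362 to 1854 CPM in WT pups. Microglia and macrophages (8) gave 853 to 2382 CPM in KO pups and 802 to 1284 CPM in WT pups, and pericytes (7) gave 1704 to 2582 CPM in KO pups and 462 to 2596 CPM in WT pups. At an unadjusted p under 0.05, 4 astrocyte markers and 2 microglia and macrophage markers were higher, and 3 choroid plexus markers were lower. Among the endothelial markers 1 was higher and 1 lower, and among the pericyte markers 0 passed. Of all tested genes, 11.1% passed in both directions together. After adjustment over all genes, edgeR called 0 markers of any of these types. Of these markers Kl and Otx2, both of choroid plexus, were at 0 in 1 library each. The part of these cell types in the results was not tested.

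Of the 46 receptors, 43 had at least 1 count and 29 were detected in all 8 libraries. Hnf4a and Hnf4g, receptors of liver and gut epithelium, and Nr0b1, an adrenal and gonadal repressor, were at 0 in every library. At 0, as many as 3 counts remain possible from counting error alone, which is 0.0269 CPM in the deepest library and 0.144 CPM in the shallowest. A filter on low counts left 32 receptors for testing, and the other 14 did not exceed 1.68 CPM in any pup. Of the 32, 29 exceeded the filter level of 0.322 CPM in all 8 libraries. Another 2, Pparg and Nr5a1, did so in all 4 WT libraries but not in all KO libraries. The remaining 1, Rorb, passed without exceeding it in all libraries of either group.

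Levels of different receptors were compared per length, in CPM per kb of merged exons. Nr4a1, an immediate early receptor, was the most abundant, at 190.4 ± 48.3 CPM per kb in KO and 173 ± 81.8 CPM per kb in WT (SD, n = 4 each). Ppard, a receptor for fatty acids, followed at 45.0 ± 4.75 CPM per kb in KO and 47.6 ± 2.88 CPM per kb in WT. The glucocorticoid receptor gene Nr3c1 stood at 26.8 ± 1.33 CPM per kb in KO and 26.5 ± 2.80 CPM per kb in WT, and Nr1h2, the gene of the oxysterol receptor LXR beta, at 24.7 ± 1.41 CPM per kb in KO and 24.9 ± 1.38 CPM per kb in WT. Nr4a1 lay clear of Ppard and Ppard clear of Nr3c1, whereas Nr3c1 and Nr1h2 did not differ beyond their spread, nor did Rxrb and Rarg further down, at 14.3 ± 1.39 CPM per kb in KO and 16.4 ± 0.807 CPM per kb in WT for Rxrb and 14.6 ± 1.39 CPM per kb in KO and 15.5 ± 1.96 CPM per kb in WT for Rarg. Esr1 ranked 21 of 46 in KO and 32 of 46 in WT, at 1.96 ± 0.185 CPM per kb in KO and 0.105 ± 0.0307 CPM per kb in WT. By mean CPM, 20 receptors exceeded 10 CPM in KO and 20 did so in WT. In WT 9 lay between 1 and 10 CPM and 17 below 1 CPM.

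**Figure D1:**
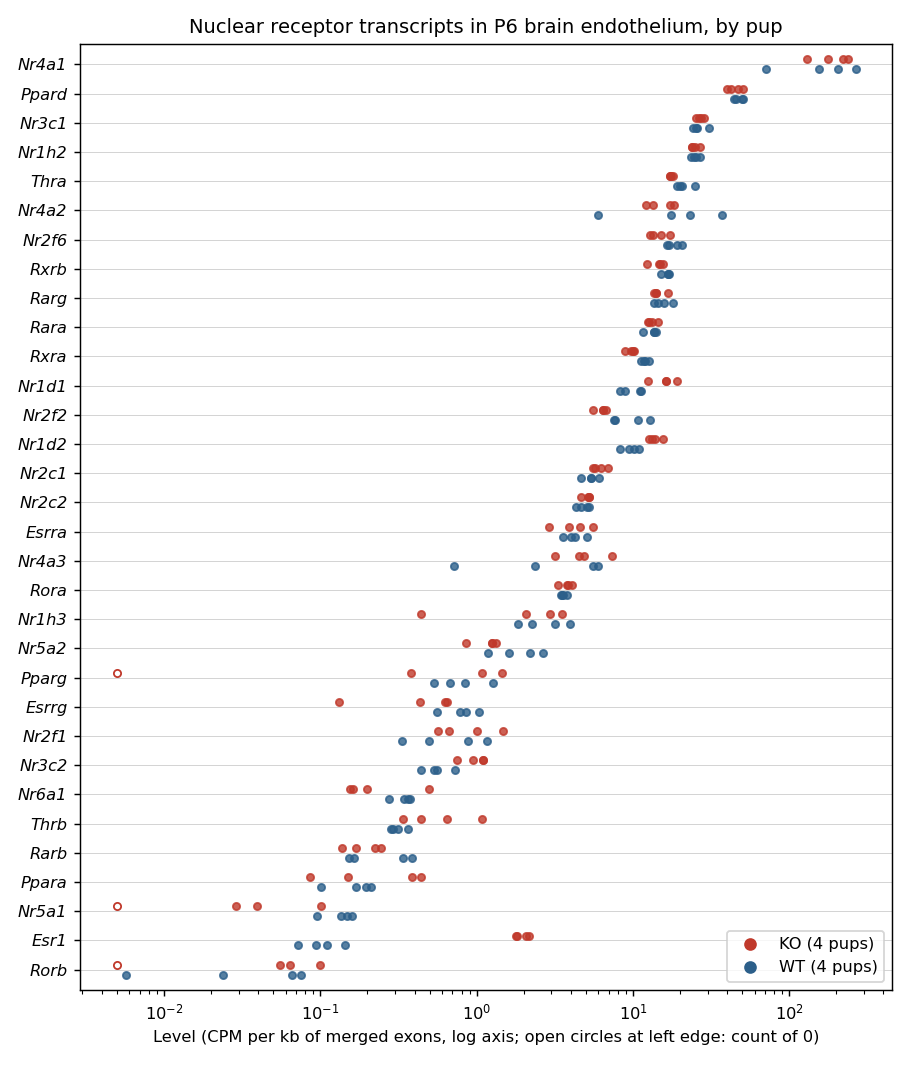
Level of the 32 tested receptors in each pup, in CPM per kb of merged exons on a log axis, ordered by the WT mean, with KO pups in red above WT pups in blue. For Esr1 the lowest KO pup stands 12.4 times above the highest WT pup, whereas the pups of most other receptors lie close together; open circles mark a count of 0.

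Counts assigned to Esr1 (ENSMUSG00000019768; GRCm38 chromosome 10, 4611593 to 5005614, plus strand) rose in KO endothelium. Esr1 measured 24.8, 28.1, 29.6 and 24.4 CPM in KO pups 1 to 4, against 0.978, 1.51, 1.27 and 1.97 CPM in WT pups 1, 2, 3 and 5. These levels rest on 518, 678, 724 and 1020 counts in KO pups, against 41, 168, 47 and 50 counts in WT pups. The lowest KO pup stood 12.4 times above the highest WT pup, so the groups were far apart, and the WT level was low but above the limit that a count of 0 allows. The log2 fold change was 4.23 (SE 0.21, 95% interval 3.77 to 4.70), which is 18.8-fold with an interval of 13.6 to 25.9. The adjusted p was 4.34e-06 by the quasi-likelihood F test of edgeR. Its unadjusted p was the smallest of all 14154 tested genes, and the log2 fold change ranked 2 among them, after Eda2r. A two-sided exact permutation test gave 0.0286, which is the lowest p that 4 against 4 pups allow. Nr3c2, Thra, Rxra, Nr1d1, Nr1d2 and Nr2f2 gave the same value, and the groups did not overlap for 7.19% of all tested genes. The Esr1 difference was already known from earlier results of these data, so this permutation test adds no independent support. In bulk samples a larger share of cells that express the gene and more RNA per cell cannot be told apart.

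Several values that differed among the pups can be set beside this result. The astrocyte marker sum was 76.1, 137, 55.6 and 96.2 CPM in KO pups 1 to 4, against 40.7, 26.9, 64.2 and 56.0 CPM in WT pups 1, 2, 3 and 5. Its groups overlapped through KO pup 3, and its part in the Esr1 levels was not tested. Y-linked transcripts, which mark male pups, were detected in KO pups 3 and 4 and in WT pups 1 and 5. Esr1 measured 29.6 and 24.4 CPM in the KO pups with them and 24.8 and 28.1 CPM in those without. Set against WT pup 5 alone, the cage mate by title, the KO pups gave a log2 fold change of 3.76 (edgeR adjusted p 0.00347). With cage as a term it was 3.76 by the titles (adjusted p 0.0028) and 4.39 by the other labels (adjusted p 0.00492). Each of these 3 fits rests on 1 WT cage mate, which is assumed to vary like the rest. Some inducible Cre proteins are fused to part of oestrogen receptor alpha. A count per gene does not show from which exons the Esr1 reads came, so reads from a transgene of that kind, if one was present, cannot be told apart from reads of the gene itself.

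RefSeq places 2 start windows at Esr1 in the table used here (build GRCm38.p6), and the 250 bases before each are shown because counts assigned to Esr1 were higher in KO. Capitals would mark the letters of 3 motifs, searched on both strands: the receptor half-site AGGTCA, the oestrogen response element GGTCANNNTGACC and the E-box CACGTG. The longer element can overlap a half-site.
Esr1 upstream start, chr10:4611739-4611988, plus strand: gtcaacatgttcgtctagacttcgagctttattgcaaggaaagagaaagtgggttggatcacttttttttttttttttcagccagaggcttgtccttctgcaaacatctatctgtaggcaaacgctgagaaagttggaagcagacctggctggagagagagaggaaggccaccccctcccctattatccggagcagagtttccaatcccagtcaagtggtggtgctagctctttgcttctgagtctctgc
Esr1 downstream start, chr10:4709908-4710157, plus strand: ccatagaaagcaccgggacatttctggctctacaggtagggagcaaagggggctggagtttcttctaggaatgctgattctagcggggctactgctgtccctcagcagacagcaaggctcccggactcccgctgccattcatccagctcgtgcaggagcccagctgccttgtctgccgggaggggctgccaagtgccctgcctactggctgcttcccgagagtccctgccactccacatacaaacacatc
Neither stretch holds any of the 3 motifs, which says only that these letters are not in these windows. Over all 32851 windows of 300 bases in the table, which add 50 bases after the start, 16.3% hold the half-site, 0.07% the oestrogen response element and 7.15% the E-box. Windows were found for 42 of the 46 receptors, 63 in all, of which 12 hold the half-site, 6 the E-box and 0 the oestrogen response element.

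None of the nearest relatives of Esr1 was called. Esr2, the gene of oestrogen receptor beta, had 0, 2, 0 and 5 counts in KO pups 1 to 4, against 8, 5, 0 and 5 counts in WT pups 1, 2, 3 and 5, too few to test. Esrrb, an oestrogen-related receptor of stem cells and the inner ear, had 0, 0, 0 and 14 counts in KO pups, against 5, 36, 0 and 14 counts in WT pups. Both were at 0 in some pups of each group, and neither exceeded 0.552 CPM in any. Esrra, an oestrogen-related receptor that drives mitochondrial genes, measured 12.8, 17.2, 24.4 and 20.1 CPM in KO pups 1 to 4, against 18.6, 17.6, 22.2 and 15.6 CPM in WT pups 1, 2, 3 and 5. The groups overlapped throughout, with a log2 fold change of 0.01 (95% interval -0.41 to 0.43, edgeR adjusted p 0.989). Esrrg, from the same branch, measured 0.816, 3.98, 2.70 and 3.89 CPM in KO pups, against 3.46, 6.40, 5.31 and 4.85 CPM in WT pups (log2 fold change -0.81, SE 0.42, adjusted p 0.533). Its groups overlapped, with KO pup 1 lowest, and without that pup the log2 fold change was -0.51.

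Over the superfamily, edgeR called 1 of the 32 tested receptors higher (Esr1), where 0.276% of all tested genes were called higher, and 0 lower, where 0.113% of all genes were called lower. By DESeq2 3 receptors were higher and 2 lower, where it called 1.12% of all genes higher and 1.36% lower. By limma 1 was higher and 0 lower, against 0.353% and 0.155% of all genes. The lower bound of the Esr1 interval, 3.77, lay above the upper bound of each of the 31 other tested receptors, the highest of which was 2.67 for Rorb, a receptor with group means under 1 CPM. Among these 31 the log2 fold changes ran from -1.56 (Nr5a1, under 1 CPM in both groups) to 1.0 (Thrb), with a median of -0.01, against a median of 0.00 over all tested genes. Nr5a1 exceeded the filter level in 4 WT libraries and 1 KO library, so it was kept through the group where it is higher. The next lowest value was -0.81 (Esrrg). For 12 of the 31 the whole 95% interval lay within 0.5 log2 units of 0 and for 16 within 1 unit, while the intervals of the rest leave room for larger differences. At an unadjusted p under 0.05 there were 10 of 32 receptors, 5 higher and 5 lower, against 11.1% of all genes. The groups did not overlap for 7 receptors, 4 with KO higher and 3 with KO lower, against 7.19% of all genes (3.77% with KO higher and 3.43% with KO lower).

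**Figure D2:**
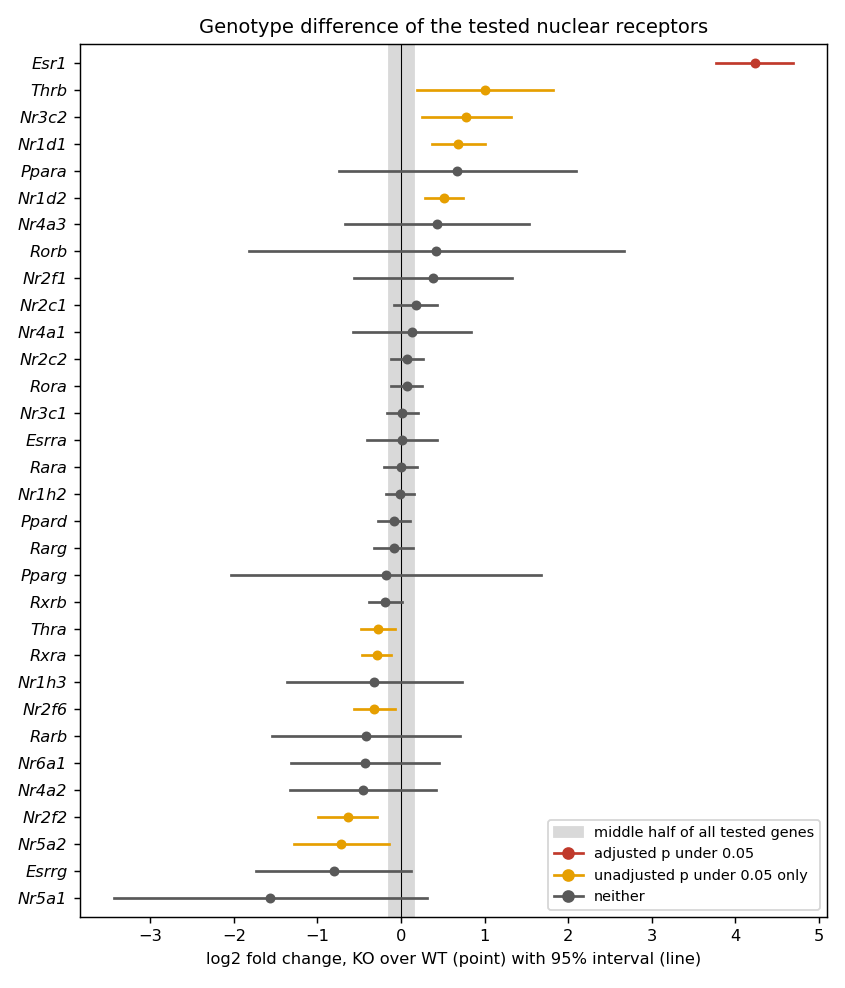
Log2 fold change of KO over WT for the 32 tested receptors, with 95% intervals as lines. The grey band is the interquartile range of all tested genes, and Esr1, at 4.23, is the red point to the right of every other interval.

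Among the corticoid receptors, Nr3c2 gave the larger difference and Nr3c1 the higher level per kb, and neither passed the test. The mineralocorticoid receptor gene Nr3c2, whose product also binds glucocorticoids, measured 7.05, 4.81, 6.09 and 7.11 CPM in KO pups 1 to 4, against 4.70, 3.60, 2.85 and 3.43 CPM in WT pups 1, 2, 3 and 5. Every KO pup lay above every WT pup, by little between KO pup 2 and WT pup 1, and the log2 fold change of 0.78 (SE 0.24) did not pass over all genes (edgeR adjusted p 0.239). The glucocorticoid receptor gene Nr3c1 measured 208, 203, 219 and 194 CPM in KO pups, against 196, 235, 186 and 198 CPM in WT pups, with a log2 fold change of 0.02 (95% interval -0.17 to 0.20, adjusted p 0.968). Its groups overlapped throughout. Pgr, the progesterone receptor gene and a common oestrogen target, had 11 counts in all 8 libraries together and could not be tested.

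The thyroid hormone receptors lay on opposite sides of 0, and neither passed the test. Thra, the main form in many tissues, measured 79.9, 80.7, 79.5 and 83.0 CPM in KO pups 1 to 4, against 94.8, 88.7, 91.8 and 116 CPM in WT pups 1, 2, 3 and 5 (log2 fold change -0.27, SE 0.09, adjusted p 0.265). Every KO pup lay below every WT pup, and WT pup 5 was highest. Thrb measured 8.01, 4.81, 3.27 and 2.48 CPM in KO pups, against 2.34, 2.08, 2.14 and 2.68 CPM in WT pups (log2 fold change 1.0, SE 0.37, adjusted p 0.333). The groups overlapped and KO pup 1 was highest, and without that pup the log2 fold change was 0.61. Thra shares 263 exon bases with Nr1d1 on the opposite strand, 5.7% of its own exon bases and 8.55% of those of Nr1d1. The libraries were stranded per the labels' protocols, but no source used here gives the strand setting of the counting. Whether the counts keep reads of the 2 genes apart at these bases is therefore not known.

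Of the retinoid receptors Rxra, Rxrb, Rara and Rarg were well expressed, and none passed in edgeR. Rxra, the common dimer partner, measured 53.2, 48.7, 54.6 and 55.5 CPM in KO pups 1 to 4, against 68.6, 64.5, 61.0 and 65.0 CPM in WT pups 1, 2, 3 and 5. The groups did not overlap (log2 fold change -0.29, SE 0.08, adjusted p 0.186), and DESeq2 called the difference with an adjusted p of 0.0499. Rxrb measured 49.0, 59.3, 61.5 and 58.3 CPM in KO pups, against 66.1, 60.2, 67.1 and 66.7 CPM in WT pups (log2 fold change -0.19, adjusted p 0.476), with overlap through WT pup 2. The retinoic acid receptor genes Rara and Rarg gave log2 fold changes of 0.00 (95% interval -0.20 to 0.20) and -0.09 (95% interval -0.32 to 0.15). Rarb averaged 1.02 ± 0.262 CPM over the KO pups and 1.37 ± 0.627 CPM over the WT pups (SD, n = 4 each), and 34.1% of its exon bases overlap Top2b on the opposite strand. Rxrg, a form of muscle and brain, was below 1 CPM in every pup.

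Of the lipid and sterol receptors none passed the test. Ppard measured 379.7, 355, 320.3 and 299 CPM in KO pups 1 to 4, against 334, 345, 373 and 379 CPM in WT pups 1, 2, 3 and 5 (log2 fold change -0.08, 95% interval -0.27 to 0.11, adjusted p 0.8). Nr1h2 measured 79.5, 89.5, 79.5 and 83.3 CPM in KO pups, against 78.7, 81.8, 89.6 and 84.7 CPM in WT pups (log2 fold change -0.01, 95% interval -0.18 to 0.16, adjusted p 0.972). Both were among the most abundant receptors, and their groups overlapped. Pparg, the adipocyte form, ran from 0 to 4.27 CPM in KO pups and from 1.57 to 3.78 CPM in WT pups, and Nr1h3, the gene of LXR alpha in macrophages and liver, from 1.10 to 8.79 CPM in KO pups and from 4.59 to 10.003 CPM in WT pups. KO pup 1 was lowest for both. Ppara, the form of liver and muscle, averaged 1.02 ± 0.671 CPM over the KO pups and 0.648 ± 0.188 CPM over the WT pups (SD, n = 4 each), with a log2 fold change of 0.67 (adjusted p 0.764). The bile acid receptor Nr1h4, the vitamin D receptor Vdr and the xenobiotic receptors Nr1i2 and Nr1i3 were too low to test, and of these Vdr alone exceeded 1 CPM in a pup (1.68 CPM, KO pup 1).

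After Esr1, the REV-ERB genes had the smallest p-values among the receptors. Nr1d1, which represses Arntl in the clock, measured 49.7, 58.8, 49.97 and 38.2 CPM in KO pups 1 to 4, against 34.8, 34.1, 27.4 and 25.5 CPM in WT pups 1, 2, 3 and 5. Nr1d2, its paralog with a similar role, measured 68.4, 84.6, 75.1 and 71.8 CPM in KO pups, against 51.3, 58.9, 54.9 and 44.4 CPM in WT pups. Every KO pup lay above every WT pup for both genes. The log2 fold changes of 0.69 for Nr1d1 (SE 0.15, 95% interval 0.37 to 1.01) and 0.52 for Nr1d2 (SE 0.10, 95% interval 0.29 to 0.75) missed the threshold in edgeR, with adjusted p values of 0.0832 and 0.0728. DESeq2 called both, with adjusted p values of 0.00191 and 0.00141. Against WT pup 5 alone, the cage mate by title, the values were 0.94 for Nr1d1 and 0.76 for Nr1d2. That pup was the lowest WT pup for both genes. With cage by the other labels as a term, edgeR gave 0.84 for Nr1d1 (adjusted p 0.58) and 0.45 for Nr1d2 (adjusted p 0.848). Rora, an activator at the same DNA elements, gave 0.07 (95% interval -0.12 to 0.26), and Rorb averaged 0.604 ± 0.454 CPM over the KO pups and 0.471 ± 0.368 CPM over the WT pups (SD, n = 4 each).

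The windows before the starts of both REV-ERB genes are shown because their groups did not overlap. The groups also did not overlap for Nr3c2, Thra, Rxra and Nr2f2, whose windows are not shown. They come from the same RefSeq table, each 250 bases 5′ to 3′ on the strand of the gene, with the motifs named above in capitals.
Nr1d1, chr11:98775378-98775627, minus strand: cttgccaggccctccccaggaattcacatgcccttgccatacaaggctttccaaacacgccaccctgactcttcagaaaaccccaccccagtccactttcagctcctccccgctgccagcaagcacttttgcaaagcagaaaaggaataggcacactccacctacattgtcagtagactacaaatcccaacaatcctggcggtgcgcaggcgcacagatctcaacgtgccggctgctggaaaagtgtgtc
Nr1d2, chr14:18239107-18239356, minus strand: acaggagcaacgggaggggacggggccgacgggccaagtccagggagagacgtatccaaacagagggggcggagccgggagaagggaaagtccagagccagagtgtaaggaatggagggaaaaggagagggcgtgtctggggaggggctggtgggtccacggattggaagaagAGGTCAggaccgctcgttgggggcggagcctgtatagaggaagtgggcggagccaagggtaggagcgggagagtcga
The Nr1d2 window holds the half-site AGGTCA once, and the Nr1d1 window holds none of the 3 motifs.

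Of 14 other clock genes, edgeR and limma called 0 higher and 0 lower. DESeq2 called 1 higher, Dbp, and 0 lower, where it called 1.12% of all genes higher and 1.36% lower. At an unadjusted p under 0.05, 3 were higher and 0 lower, against 11.1% of all genes in both directions together. The median log2 fold change of the 14 was 0.02. Dbp, an output transcription factor of the clock, measured 30.6, 18.5, 12.8 and 16.1 CPM in KO pups 1 to 4, against 8.44, 8.65, 13.0 and 9.65 CPM in WT pups 1, 2, 3 and 5 (log2 fold change 0.97, SE 0.26, edgeR adjusted p 0.17, DESeq2 adjusted p 0.0154). The groups overlapped by WT pup 3 and KO pup 1 was highest, and without KO pup 1 the log2 fold change was 0.67. Its relative Tef gave 0.28 (SE 0.09, adjusted p 0.257) with no overlap. Of the 14, 7 lay above 0 and 7 below. The labels give no time of day for any pup, and its part in these values was not tested.

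**Figure D3:**
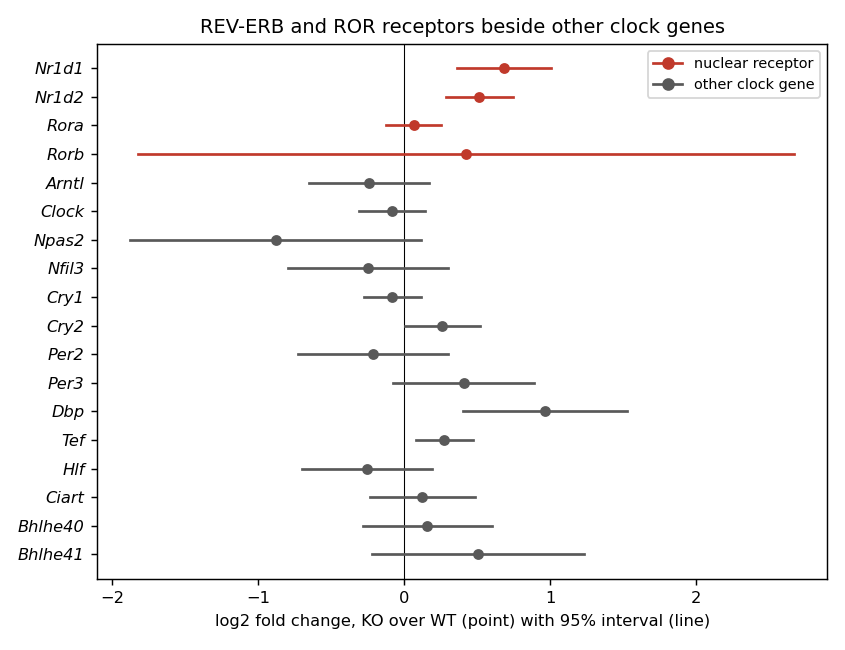
Log2 fold change of KO over WT, with 95% intervals, for the 4 REV-ERB and ROR receptors in red and 14 other clock genes in grey. The intervals of Nr1d1, Nr1d2, Dbp, Tef and Cry2 lie above 0, and those of the other genes include 0.

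Of the COUP transcription factors none passed in edgeR, and Nr2f2 was called by DESeq2. Nr2f2, which suppresses arterial fate in veins, measured 47.6, 55.5, 55.2 and 57.6 CPM in KO pups 1 to 4, against 65.5, 92.9, 66.4 and 111 CPM in WT pups 1, 2, 3 and 5. Every KO pup lay below every WT pup, and WT pups 2 and 5 stood well above WT pups 1 and 3. The log2 fold change was -0.64 (SE 0.16, edgeR adjusted p 0.152, DESeq2 adjusted p 0.00836). Against WT pup 5 alone, the cage mate by title, edgeR gave -1.04, a comparison with the highest WT pup whose spread comes from the KO pups alone, and with cage by the other labels as a term it gave -0.30 (adjusted p 1). Nr2f6, an orphan receptor of the same branch, measured 45.1, 38.5, 51.4 and 40.0 CPM in KO pups, against 61.2, 49.0, 50.8 and 57.1 CPM in WT pups (log2 fold change -0.32, SE 0.11, adjusted p 0.315). Its groups overlapped through KO pup 3, and 54.4% of its exon bases overlap Ocel1 on the opposite strand. Nr2f1, known for its role in the nervous system, gave 0.39 (adjusted p 0.804).

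In the list of 8 venous genes set beside Nr2f2, edgeR called 0 higher and 1 lower, Vwf, the gene of von Willebrand factor. It called 0.276% of all genes higher and 0.113% lower. DESeq2 called 0 higher and 3 lower (Ackr1, Lcn2 and Vwf), against 1.12% and 1.36% of all genes. By limma 0 were higher and 1 lower (Vwf), against 0.353% and 0.155% of all genes. At an unadjusted p under 0.05, 0 were higher and 3 lower, against 11.1% of all genes in both directions together. Vwf averaged 1172.5 ± 85.9 CPM over the KO pups and 2109.7 ± 286 CPM over the WT pups (SD, n = 4 each, log2 fold change -0.85, edgeR adjusted p 0.00298). The edgeR call of Vwf was lost with cage by the other labels as a term (adjusted p 0.27). The list median was -0.61, against 0.00 over all genes. The siderophore-binding Lcn2 measured 1.54, 3.90, 4.13 and 4.80 CPM in KO pups 1 to 4, against 6.61, 20.4, 8.97 and 21.9 CPM in WT pups 1, 2, 3 and 5, with no overlap. Its log2 fold change was -2.0 (edgeR adjusted p 0.0881, DESeq2 adjusted p 0.000152). WT pups 2 and 5 were the highest pups for Nr2f2, Lcn2 and Vwf alike. The summed markers of choroid plexus and ependyma were highest in the same pups, at 82.8, 128, 13.1 and 299 CPM in KO pups 1 to 4, against 445, 868, 362 and 1854 CPM in WT pups 1, 2, 3 and 5, and their part in these values was not tested.

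**Figure D4:**
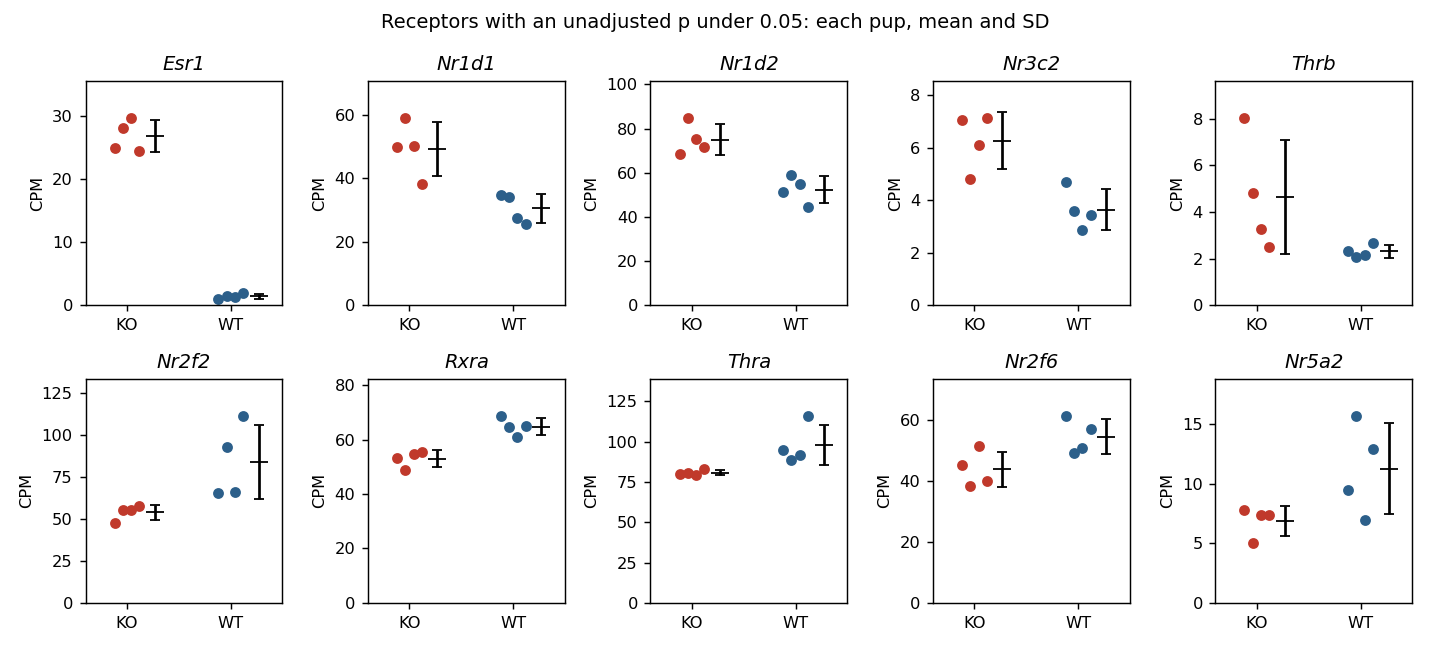
CPM of each pup for the 10 receptors with an unadjusted p under 0.05, KO left and WT right, with mean and SD beside the points (n = 4 each). Esr1 is separated by 12.4 times between the nearest pups, and the groups of Thrb, Nr2f6 and Nr5a2 overlap.

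The NR4A receptors, which are induced quickly by many stimuli including tissue dissociation, varied widely among the WT pups. Nr4a1 measured 453, 768, 833 and 617 CPM in KO pups 1 to 4, against 714, 929.9, 251 and 539 CPM in WT pups 1, 2, 3 and 5 (log2 fold change 0.13, 95% interval -0.57 to 0.84, edgeR adjusted p 0.929). The groups overlapped, and without WT pup 3 the log2 fold change was -0.12. With cage by the other labels as a term, where WT pup 3 is the cage mate, it was 1.41 (edgeR adjusted p 0.396). All 3 members had their lowest level in WT pup 3, at 251 CPM for Nr4a1, 24.1 CPM for Nr4a2 and 4.28 CPM for Nr4a3. The sum over 8 genes of the dissociation response, Fos and Egr1 among them, was also lowest in that pup, at 2405 CPM. The sum ran from 3976 to 6256 CPM in KO pups and from 4032 to 6827 CPM in the other WT pups, and its part in the NR4A levels was not tested. Nr4a2 gave a log2 fold change of -0.45 (95% interval -1.33 to 0.42) and Nr4a3 one of 0.43 (95% interval -0.67 to 1.54), with adjusted p values of 0.74 and 0.812.

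**Figure D5:**
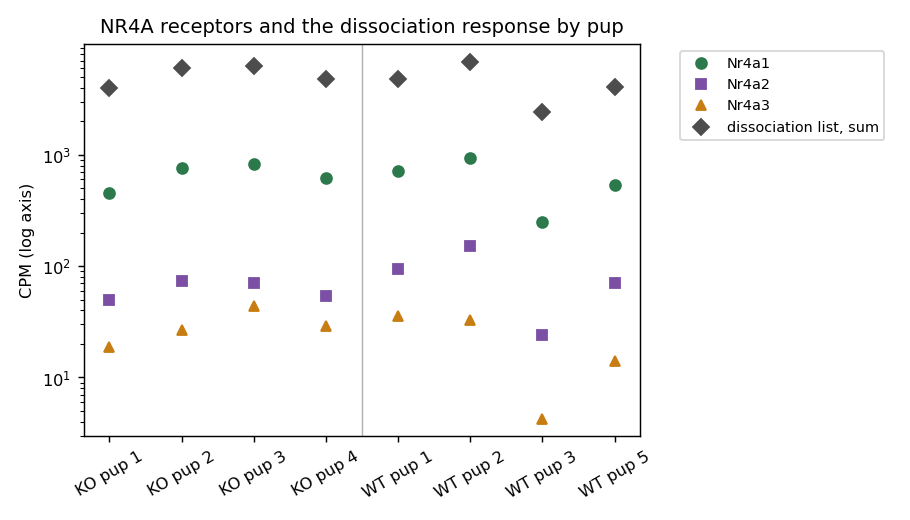
CPM of Nr4a1, Nr4a2, Nr4a3 and the summed dissociation list in each pup, KO pups left of WT pups, on a log axis. All 4 quantities are lowest in WT pup 3, where the sum was 2405 CPM.

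Of the remaining orphan receptors none passed the test. Nr5a2, known in liver and in the early embryo, measured 7.82, 5.01, 7.36 and 7.35 CPM in KO pups 1 to 4, against 9.51, 15.7, 6.94 and 13.0 CPM in WT pups 1, 2, 3 and 5 (log2 fold change -0.71, SE 0.26, adjusted p 0.318). The groups overlapped by WT pup 3, and with cage by the other labels as a term the value was -0.01. Nr2c1, a testicular receptor, measured 26.2, 31.8, 28.8 and 25.5 CPM in KO pups, against 24.8, 27.9, 24.9 and 21.5 CPM in WT pups (log2 fold change 0.18, adjusted p 0.64), with overlapping groups. Its relative Nr2c2 gave 0.07 (95% interval -0.12 to 0.26), though 30.7% of its exon bases overlap Mrps25 on the opposite strand. Nr6a1, a germ cell receptor, ran from 1.67 to 5.37 CPM in KO pups and from 2.95 to 4.04 CPM in WT pups. Nr2e1, a receptor of neural stem cells, Nr2e3, a receptor of photoreceptors, and Nr0b2, a repressor of bile acid synthesis, were below 1 CPM in every pup and were not tested.

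Genes that receptors are known to control, or that supply their ligands, were described from fixed lists. Of 13 common oestrogen targets 10 were tested, and edgeR and limma called 0 higher and 0 lower. At an unadjusted p under 0.05, 0 were higher and 2 lower, against 11.1% of all genes in both directions together. The median log2 fold change of these targets was -0.12. DESeq2 called 1 lower, Nos3, the endothelial nitric oxide synthase gene, where it called 1.36% of all genes lower. Nos3 measured 592, 626, 578 and 473 CPM in KO pups 1 to 4, against 772, 699, 630.0 and 744 CPM in WT pups 1, 2, 3 and 5 (log2 fold change -0.33, SE 0.10, edgeR adjusted p 0.229, DESeq2 adjusted p 0.046). Every KO pup lay below every WT pup. Igfbp4, which binds insulin-like growth factors, gave -0.26 (adjusted p 0.249) with no overlap. Greb1, a widely used readout of oestrogen receptor alpha, averaged 1.23 ± 1.49 CPM over the KO pups and 0.785 ± 0.120 CPM over the WT pups (SD, n = 4 each) and gave 0.63 (95% interval -1.04 to 2.30, adjusted p 0.827), with 3.45 CPM in KO pup 1. Tff1 had 0 counts in every library. In the list for oestrogen supply and the membrane receptor, 4 of 9 genes were tested and edgeR, DESeq2 and limma called 0. At an unadjusted p under 0.05, 1 was higher and 0 lower, against the same 11.1% of all genes. Its aromatase gene Cyp19a1 had 0 counts in every library. Hsd17b7, which makes oestradiol and takes part in cholesterol synthesis, gave 0.66 (adjusted p 0.443), or 0.36 without KO pup 1. Gper1, the membrane receptor, gave -0.33 (adjusted p 0.747), with a range of -0.54 to -0.13 when single pups were left out.

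Among the targets of other receptors, edgeR and limma called 0 genes in 6 lists. Their median log2 fold changes were -0.22 for corticoids, 0.15 for thyroid hormone, -0.19 for retinoids, 0.11 for peroxisome proliferators, -0.01 for oxysterols, and 0.15 for xenobiotics with vitamin D. At an unadjusted p under 0.05 there was 1 lower of 10 tested corticoid genes, 0 of 6 thyroid hormone genes, 2 lower of 9 retinoid genes, 1 higher of 9 peroxisome proliferator genes, 2 higher of 8 oxysterol genes and 1 higher of 4 xenobiotic genes, against 11.1% of all genes. DESeq2 called Tgm2 lower among retinoid genes and Mylip higher among oxysterol genes, and 0 in the other 4 lists. It called 1.12% of all genes higher and 1.36% lower. Mylip, an LXR-induced ubiquitin ligase, measured 75.9, 69.3, 98.0 and 82.5 CPM in KO pups 1 to 4, against 60.0, 64.4, 45.6 and 61.3 CPM in WT pups 1, 2, 3 and 5 (log2 fold change 0.49, SE 0.13, edgeR adjusted p 0.177, DESeq2 adjusted p 0.0256), with no overlap. Tgm2, a transglutaminase, gave -0.60 (edgeR adjusted p 0.249). Its WT pups 2 and 5 were high (458 and 434 CPM) beside WT pups 1 and 3 (261 and 239 CPM). Others with the smallest p in their lists were Cdkn1c (-0.36, edgeR adjusted p 0.433) and Tsc22d3 (-0.24, adjusted p 0.534) of the corticoid list and Klf15 (1.03, adjusted p 0.478), which had been placed in the thyroid hormone list. Klf15 gave 0.61 without KO pup 4 and 0.11 with cage by the titles as a term, and Cdkn1c gave -0.21 without WT pup 2. They also included the fatty acid transporter Cd36 (1.08, adjusted p 0.226), the lipid droplet gene Plin2 (0.19, adjusted p 0.59), the desaturase gene Scd2 (0.19, adjusted p 0.445), the efflux pump gene Abcb1a (0.27, adjusted p 0.312) and Por (0.15, adjusted p 0.558).

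None of the listed partners of the receptors passed the test. Of 14 coactivators, 10 corepressors and 10 chaperones, all tested, edgeR, DESeq2 and limma called 0. At an unadjusted p under 0.05, 0 were higher and 3, 2 and 1 lower, against 11.1% of all genes in both directions together. The list medians of the log2 fold change were -0.05, -0.15 and -0.06. The smallest p-values were those of the coactivators Ncoa6 (-0.25, adjusted p 0.273) and Pprc1 (-0.39, adjusted p 0.399), of the corepressors Nrip1 (-0.25, adjusted p 0.275) and Hdac3 (-0.22, adjusted p 0.312), and of the receptor chaperones Fkbp4 (-0.25, adjusted p 0.236) and Fkbp5 (-0.38, adjusted p 0.752). Pprc1 gave -0.19 without WT pup 1, and Fkbp5 gave -0.09 without WT pup 5.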

How the data were processed

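Endothelial RNA of 4 KO and 4 WT pups was sequenced as stranded poly(A) libraries, per the labels' protocols. For each library the authors deposited gene counts as whole numbers. STAR, featureCounts and the build GRCm38 are named in the submitters' processing notes. The strand setting, versions and annotation are not stated in what was used here. Symbols, positions and merged exon lengths came from GENCODE M21, which named 25664 of 25700 identifiers. Sts and Meg3, listed by symbol, matched no row.

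The counts entered edgeR 4.0.16 (R 4.3.3). The function filterByExpr (minimum count 10, minimum total 15) kept 14154 genes, libraries were scaled by the trimmed mean of M values, and genotype was the only term. Benjamini-Hochberg adjustment ran over these genes with a threshold of 0.05. Standard errors are the fold change divided by the root of F. Permutation tests used all 70 assignments. Alternatives used DESeq2 1.42.0 and limma 3.58.1, other scalings, no filter, cage, pup number or Y-linked detection as terms, and fewer libraries. The fit was tested on simulated data. The chi-square per gene between any 2 libraries was 16.0 or more, so none was a duplicate. Members and lists were chosen with earlier results of these data known. Values per pup are given for Esr1, its 4 nearest relatives, members with an unadjusted p under 0.05 and the member with the highest WT level per length in each role. Each list gives its called genes and the 2 with the smallest p. Some list genes are not reported here. Other genes, such as Cry2, Greb1 and Eda2r, were chosen after their values were seen.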

Additional observations from a re-analysis of the deposited data

Results flagged for a closer look

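In 5 of the 64 groups of 4 pups formed by the 32 tested receptors, 1 pup stood apart from the other 3 by Dixon's 95% criterion, and chance alone gives about 1 in 20. Rarg measured 70.9 CPM and Nr5a2 measured 5.01 CPM in KO pup 2. Nr6a1 measured 5.37 CPM in KO pup 1. Rara measured 50.5 CPM in WT pup 3, and Rxrb measured 60.2 CPM in WT pup 2. None of these 5 receptors was called by edgeR, DESeq2 or limma.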

How the results depend on the processing

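Esr1 was called higher under all 19 alternatives, with log2 fold changes between 3.76 and 4.46 and an adjusted p of at most 0.00492. With pup number as a replicate block it was 4.46 (adjusted p 0.00187), and the block changed no receptor call. Deviations from the group means correlated at -0.03, 0.03 and -0.07 for pups numbered 1, 2 and 3, so the numbers do not pair the pups. Besides the 1 receptor called higher and 0 called lower, DESeq2 called 3 higher (Esr1, Nr1d1 and Nr1d2) and 2 lower (Rxra and Nr2f2), with 2 receptors left without an adjusted p, and the fit restricted to the cage of the KO pups called 1 lower (Nr2f2, adjusted p 0.0452), where WT pup 5, its highest WT pup, is the whole WT group and the spread comes from the KO pups alone. Leaving out KO pup 1 with WT pup 2, an alternative chosen after seeing the data, called 2 higher (Esr1 and Nr1d2, adjusted p 0.042). Leaving out single libraries gave 1 higher and 0 lower each time. The cause of these differences was not tested. Over all genes, 39 were higher and 16 lower. DESeq2 called 158 and 193, no filter 46 and 38, the cage by titles 10 and 6, the second cage labels 10 and 0, pup number 11 and 0 (with 758 and 956 genes at an unadjusted p under 0.05 in the last 2 fits), and the fit restricted to the cage 9 and 12. Leaving out single libraries gave 25 to 60 higher and 6 to 27 lower, and leaving out KO pup 1 with WT pup 2 gave 50 and 26.

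Direction turned for 6 uncalled genes. Esrra was -0.25 with the second cage labels, -0.141 with pup number, -0.0117 with Y-linked detection, and -0.149 to 0.154 without single libraries. Ppard was 0.0016 with pup number and Cdkn1c 0.0594 with the second cage labels. Without single libraries Nr1h2 ran from -0.0575 to 0.0218, Nr3c1 from -0.0249 to 0.0902 and Nr4a1 from -0.124 to 0.412. With the second cage labels Nr4a1 kept its direction but reached 1.41 (adjusted p 0.396). The Vwf call was lost with the second cage labels (-0.646, adjusted p 0.27) and with pup number (-0.809, adjusted p 0.125). Receptors under 1 CPM rest on few counts, the shallowest library holding 20.9 M, so small differences of theirs were not detectable at this depth.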
